A study of Cricetulus griseus with 24 samples.

Results

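AP-1 is a family of dimeric transcription factors, and 9 of its genes and close relatives were described here across 2 antibody-producing Chinese hamster ovary (CHO) cell lines and the CHO-S line: Jun, Junb, Jund, Fos, Fosb, Fosl1, Fosl2, Atf3 and Maff. They were picked out of the table by gene symbol, and 8 of the 9 were read from the 28037 genes of the deposited count table. Jund was not analysed here. A0 is an antibody-producing clone of the DG44 line, a CHO host, and it received 2 plasmids, one with the antibody heavy chain and a selectable gene and the other with the light chain and a neomycin resistance gene. A1 is its progeny after stepwise selection with methotrexate, a drug that favours cells with more transgene copies in this system. CHO-S makes no antibody and served as the negative control, so it differs from A0 and A1 in its host lineage as well as in the transgenes. The sample titles name it NDST, which the labels do not explain, and whether it carries a further genetic change is not stated. RNA was taken at exponential and at stationary phase, from 4 cultures of A0 and 3 each of A1 and CHO-S at each phase, 20 cultures in all. Each line is clonal or established, so its cultures are repeats of 1 cell population and do not stand for other clones.

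AP-1 dimers form through leucine zippers. JUN proteins pair with each other or with FOS proteins and bind short DNA elements in promoters and enhancers, while FOS proteins bind DNA in this way only as partners of JUN proteins. Fos, Fosb, Jun, Junb and Atf3 are classic immediate early genes, switched on within minutes by growth factors or stress through the MAP kinases, and Fosl1 (FRA-1) and Fosl2 (FRA-2) are longer lived and often remain high in cells with constant growth signalling. ATF3 is induced by amino acid shortage and by stress of the endoplasmic reticulum, and MAFF is a small MAF protein with no activation domain of its own that pairs with factors such as NRF2. All values below are of mRNA, and the activity of these proteins also depends on phosphorylation and partners, which RNA does not show.

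The libraries held 1038026 to 14652646 counted reads each. CHO-S stationary culture 1 held the lowest count, the next lowest library had 6532373, and 32.8% of its reads fell outside genes against at most 18.4% in every other library, so calls of AP-1 genes that use it are also given without it where they changed. Each A0 exponential culture had 2 libraries, which were summed. Levels are given as CPM, read counts scaled to library size with TMM factors. For the genes above 3 CPM, the 2 libraries of 1 culture differed by at most 2.13 times, for Atf3 in culture 3. The share of reads that did not align was 2.31 to 3.06% in CHO-S, 3.13 to 4.85% in A0 at exponential and 6.43 to 9.41% at stationary phase, and 7.49 to 8.65% and 10.3 to 11.5% in A1, and its part in the results was not tested. Vim, a defining gene of mesenchymal cells, averaged 799 to 1410 CPM per group, whereas Col1a1 and Col1a2 stayed under 0.5 CPM in every group mean, and the summed epithelial and blood markers reached at most 3.85 and 0.279 CPM in any culture. The summed level of the 6 mesenchymal markers was 1660 to 2460 CPM in A0, 2270 to 3280 in A1 and 4260 to 6060 in CHO-S, where Fn1 and S100a6 were highest, that of 4 ovarian markers was 16.4 to 71.6 CPM over all cultures, and their part in the differences between lines was not tested. In bulk RNA, fewer cells with a transcript and less of it per cell cannot be told apart.

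The 8 genes were measured at very different depths. Fosl1 was counted 293 to 12882 times per culture and Jun 62 to 2548 times, and Junb, Fosl2, Atf3 and Maff lay between 15 and 1335 counts. Fos and Fosb were near the detection limit, with 1 to 59 and 0 to 78 counts, so that only large differences could be seen for them. CPM is not divided by transcript length, so levels were compared between cultures for 1 gene and not between genes.

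**Figure D1:**
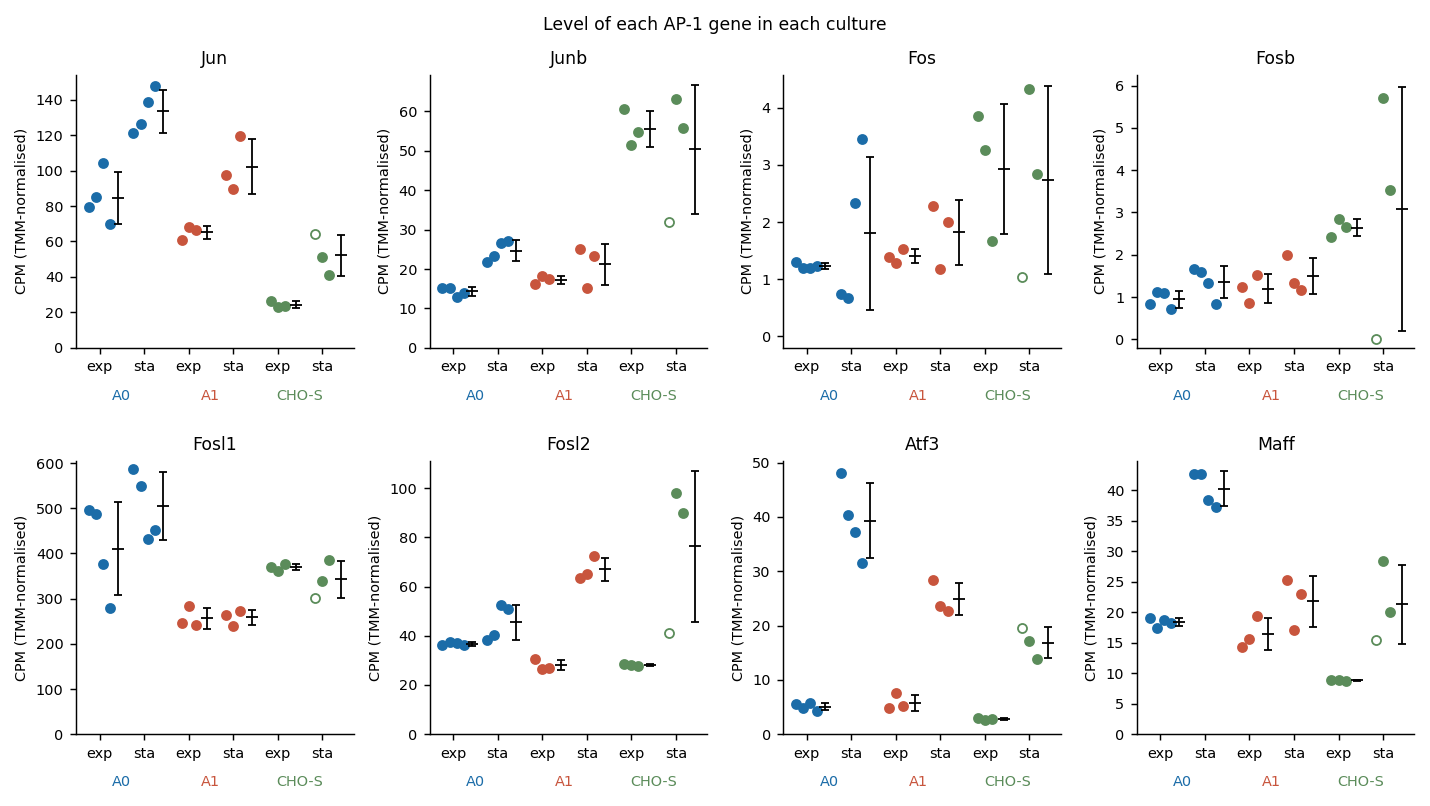
Level of the 8 AP-1 genes in each of the 20 cultures, in CPM on an axis from about 0 in each panel, with exponential (exp) and stationary (sta) phase side by side for A0, A1 and CHO-S. Points are cultures, the open point is CHO-S stationary culture 1, and the bars give the mean and SD of the group. Atf3 is higher at stationary phase in every line, Junb lies highest in CHO-S, and Fosl1 lies lowest in A1.

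The first question was how the genes respond when the cultures pass from exponential to stationary phase. Atf3, Jun, Maff and Fosl2 were higher at stationary phase in all 3 lines, and no AP-1 gene was called lower in any of them. In A0, 5 of the 8 genes passed the test and all 5 rose, where 37.7% of the 20267 genes tested passed it in either direction and 17.7% rose. In A1, 4 of 8 rose, against 33.4% of 18548 genes that passed and 15.6% that rose. In CHO-S, 4 of 8 rose, against 13.3% of 17367 genes that passed, 6.81% that rose and 6.48% that fell. The median log2 fold change of the 8 genes was 0.61 in A0, 0.37 in A1 and 0.92 in CHO-S, while that of all genes was 0.0013, 0.032 and 0.023. The 2 phases did not overlap for 5 of 8 AP-1 genes in A0, 3 in A1 and 4 in CHO-S, where 35.8%, 43.1% and 36.4% of all genes did not overlap.

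**Figure D2:**
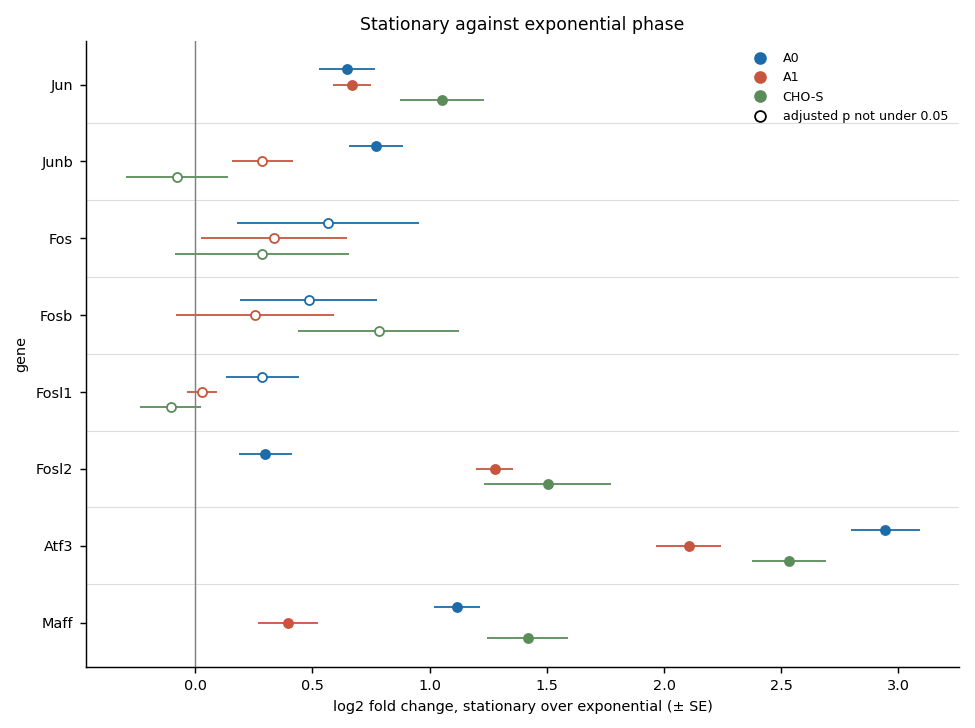
Log2 fold change of the 8 AP-1 genes between stationary and exponential phase, with its standard error as the bar, in A0, A1 and CHO-S. Filled points passed an adjusted p of 0.05 and open points did not. Atf3 has the largest change in every line, and Fosl2 is further to the right in A1 and CHO-S than in A0.

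Atf3, the stress-induced partner of JUN proteins, had the largest phase response of the 8 genes. In A0 it went from 5.50, 4.83, 5.66 and 4.20 CPM in the 4 exponential cultures to 48.02, 40.4, 37.2 and 31.5 CPM in the 4 stationary ones, a log2 fold change of 2.94 (SE 0.15, adjusted p = 1.3e-09, edgeR). A1 had 4.75, 7.51 and 5.18 CPM at exponential and 28.3, 23.6 and 22.7 CPM at stationary phase, a change of 2.10 (SE 0.14, adjusted p = 4.4e-13, edgeR). In CHO-S the levels were 2.93, 2.59 and 2.73 CPM and 19.6, 17.1 and 13.8 CPM, a change of 2.53 (SE 0.16, adjusted p = 0.0015, edgeR), and 2.52 (adjusted p = 2.6e-26, edgeR) without CHO-S stationary culture 1. Every stationary culture thus lay above every exponential culture of any line. The CHO-S call was lost without CHO-S exponential culture 2, at 2.51 (adjusted p = 0.051, edgeR). Among genes with a mean of at least 5 CPM, the rise of Atf3 ranked 27 of 10499 in A0, 12 of 10451 in A1 and 12 of 10395 in CHO-S, counted from the largest.

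Maff, the small MAF gene, rose in the same 3 lines. A0 had 19.01, 17.5, 18.7 and 18.3 CPM at exponential and 42.7, 42.7, 38.4 and 37.3 CPM at stationary phase, and the change was 1.12 (SE 0.099, adjusted p = 3.4e-07, edgeR). In A1, where the levels were 14.3, 15.6 and 19.4 CPM and 25.3, 17.1 and 22.97 CPM, the phases overlapped and the change was 0.40 (SE 0.13, adjusted p = 0.015, edgeR). This call was lost in 4 of the 6 fits that left out 1 A1 culture, where the change lay between 0.30 and 0.36, and in a fit over all 6 groups (adjusted p = 0.12, edgeR). CHO-S went from 8.86, 8.94 and 8.66 CPM to 15.5, 28.4 and 20.1 CPM, a change of 1.42 (SE 0.17, adjusted p = 0.0042, edgeR) and of 1.51 (adjusted p = 4.1e-21, edgeR) without CHO-S stationary culture 1. The CHO-S call was lost without any 1 of the CHO-S exponential cultures, with changes of 1.37 to 1.39 and adjusted p-values of 0.056 to 0.061 (edgeR). The level at exponential phase in CHO-S was below that of every A0 and A1 culture.

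Jun, the founding member of the family, rose in all 3 lines. Its level in A0 was 79.2, 84.9, 104 and 69.7 CPM at exponential and 121, 126, 139 and 148 CPM at stationary phase, a change of 0.65 (SE 0.12, adjusted p = 0.00038, edgeR). In A1 it was 61.03, 68.4 and 66.2 CPM and 97.5, 89.6 and 119 CPM, a change of 0.67 (SE 0.080, adjusted p = 7.1e-08, edgeR). CHO-S began lower, at 26.6, 23.1 and 23.3 CPM, and reached 63.99, 51.3 and 41.2 CPM, a change of 1.05 (SE 0.18, adjusted p = 0.011, edgeR) and of 0.95 (adjusted p = 5.2e-18, edgeR) without CHO-S stationary culture 1. In each line the 2 phases did not overlap, and CHO-S stationary culture 1 was the highest of its group. The CHO-S call was lost without CHO-S stationary culture 2 and without any 1 of the CHO-S exponential cultures. The change was then 1.04 to 1.14, with adjusted p-values of 0.069 to 0.093 (edgeR).

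Junb, which can oppose JUN on growth genes, passed the main test in A0 alone, while its call in A1 depended on the settings. A0 had 15.3, 15.1, 12.9 and 13.97 CPM at exponential and 21.7, 23.2, 26.5 and 27.1 CPM at stationary phase, a change of 0.77 (SE 0.12, adjusted p = 6.0e-05, edgeR). The A1 levels of 16.2, 18.3 and 17.4 CPM and 25.03, 15.2 and 23.3 CPM overlapped through stationary culture 2, and the change was 0.29 (SE 0.13, adjusted p = 0.090, edgeR). Without that culture it was 0.50 (adjusted p = 0.0010, edgeR). With all A1 cultures it also passed without a filter on low counts, at 0.29 (adjusted p = 0.031, edgeR). With the culture number as a block it passed at 0.28 (adjusted p = 0.032, edgeR). In CHO-S, Junb had 60.5, 51.4 and 54.8 CPM and 31.99, 63.2 and 55.8 CPM, where the lowest value belonged to culture 1, and the change was -0.077 (adjusted p = 0.85, edgeR) with that culture and 0.12 (adjusted p = 0.16, edgeR) without it.

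Among the FOS genes, Fosl2 was called higher in every line. It went from 30.5, 26.6 and 26.99 CPM to 63.3, 65.3 and 72.2 CPM in A1, a change of 1.28 (SE 0.080, adjusted p = 1.3e-13, edgeR), and the 2 groups did not overlap. In CHO-S it went from 28.4, 28.1 and 27.7 CPM to 41.3, 97.8 and 89.96 CPM, and the lowest stationary value was again that of culture 1. The change was 1.5 (SE 0.27, adjusted p = 0.014, edgeR) with this culture and 1.75 (adjusted p = 5.2e-41, edgeR) without it. When any 1 of the other 5 CHO-S cultures was left out the call was lost, with changes of 1.31 to 1.49 and adjusted p-values of 0.074 to 0.11 (edgeR). A0 moved least, from 36.1, 37.6, 36.9 and 36.2 CPM to 38.2, 40.5, 52.4 and 50.7 CPM, a change of 0.30 (SE 0.11, adjusted p = 0.043, edgeR). The A0 call was lost without any 1 of the exponential cultures, without stationary culture 3 or 4, where the change ranged from 0.23 to 0.31, and in a fit over all 6 groups. Cultures 1 and 2 alone gave 0.088 (adjusted p = 0.43, edgeR) and cultures 3 and 4 alone 0.50 (adjusted p = 0.011, edgeR).

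Fosl1, the FOS gene with the most reads here, did not pass the test between phases in any line. A0 had 496, 488, 378 and 279 CPM at exponential and 587, 548, 431 and 451 CPM at stationary phase, and the spread between cultures was wide. The change was 0.29 (SE 0.16, adjusted p = 0.17, edgeR). The A0 cultures with the same number varied together in part, though stationary cultures 3 and 4 were closer to an exponential culture of another number. A fit with the culture number as a replicate block was also made, and there Fosl1 passed with 0.31 (adjusted p = 0.0021, edgeR). In A1 the levels were 247, 284 and 241 CPM and 263, 240.0 and 273 CPM, a change of 0.029 (adjusted p = 0.78, edgeR). CHO-S had 371, 362 and 377 CPM and 302, 339.9 and 385 CPM, a change of -0.10 (adjusted p = 0.65, edgeR).

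Fos and Fosb, the immediate early FOS genes, were at a few CPM in all groups. Fos had 1.31, 1.20, 1.19 and 1.23 CPM in A0 at exponential phase and 0.745, 0.672, 2.34 and 3.45 CPM at stationary phase, so that stationary cultures 1 and 2 lay below and cultures 3 and 4 above all exponential cultures. The change over all 4 was 0.57 (adjusted p = 0.28, edgeR), while the first pair of cultures gave -0.83 (adjusted p = 0.096, edgeR) and the other pair 1.26 (adjusted p = 0.025, edgeR). In A1, Fos had 1.39, 1.28 and 1.52 CPM and 2.27, 1.18 and 2.00 CPM, and in CHO-S 3.86, 3.26 and 1.67 CPM and 1.03, 4.32 and 2.85 CPM, with changes of 0.34 and 0.29 that did not pass. Fosb had 0.847, 1.12, 1.11 and 0.722 CPM in A0 at exponential and 1.68, 1.60, 1.32 and 0.824 CPM at stationary phase, a change of 0.49 (adjusted p = 0.22, edgeR). The Fosb levels in A1 were 1.23, 0.854 and 1.52 CPM and 1.99, 1.34 and 1.17 CPM, a change of 0.26 (adjusted p = 0.63, edgeR). CHO-S had 2.43, 2.84 and 2.66 CPM at exponential and 0, 5.72 and 3.52 CPM at stationary phase, where the count of 0 in culture 1 allows up to 3.1 CPM, and the change was 0.78 (adjusted p = 0.18, edgeR) with that culture and 0.90 (adjusted p = 0.00028, edgeR) without it.

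How many genes passed in CHO-S depended on which cultures were used. With stationary culture 1, the one with the fewest reads, 2308 genes passed and the biological coefficient of variation was 0.186. Without it, 8269 of 17319 genes passed (47.7%), 3995 higher and 4274 lower, and the coefficient was 0.0341. In that fit 5 of the 8 AP-1 genes rose, Fosb in addition to Jun, Fosl2, Atf3 and Maff. Conversely, with stationary culture 1 kept and CHO-S exponential culture 2 left out, no gene passed in edgeR. There 3471 genes, 4 of them AP-1 genes, had an unadjusted p under 0.05. DESeq2 called 817 genes, again with 4 AP-1 genes. The count of AP-1 genes called was 2 without CHO-S stationary culture 2, where 337 genes passed in all. It was 1 without CHO-S exponential culture 1 or 3, where 310 and 282 genes passed.

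Whether the phase response itself differed between lines was tested as an interaction over the 4 groups concerned. Against A0, the response of A1 was larger for Fosl2, with a difference of the log2 fold changes of 0.94 (SE 0.15, adjusted p = 0.00036, edgeR). It was smaller for Atf3, with -0.87 (SE 0.23, adjusted p = 0.019, edgeR), and for Maff, with -0.75 (SE 0.18, adjusted p = 0.0099, edgeR). These were 3 of 8 AP-1 genes, where 8.94% of 20953 genes passed, 5.04% with a larger and 3.9% with a smaller response in A1. Without A1 culture 2 or without A1 culture 3 the count was 1, Fosl2, while that of all genes went from 1873 to 570 and 741, and Atf3 and Maff had adjusted p-values of 0.081 to 0.27 (edgeR). With A0 cultures 3 and 4 alone they had -0.71 (adjusted p = 0.082, edgeR) and -0.65 (adjusted p = 0.05006, edgeR), and without A0 culture 2 Atf3 had -0.83 (adjusted p = 0.054, edgeR). For Jun the difference between the responses was -0.019 (SE 0.17, adjusted p = 1.0, edgeR) and for Junb -0.51 (SE 0.20, adjusted p = 0.11, edgeR). Junb passed with A0 cultures 3 and 4 alone, with -0.73 (adjusted p = 0.041, edgeR). With the culture number of each line as a block, Junb had -0.53 (adjusted p = 0.013, edgeR) and Fosl1 -0.32 (adjusted p = 0.036, edgeR), against -0.30 (adjusted p = 0.44, edgeR) for Fosl1 without the block.

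Compared with CHO-S, the response of A0 was larger for Junb, with a difference of 0.80 (SE 0.23, adjusted p = 0.028, edgeR), and smaller for Fosl2, with -1.25 (SE 0.26, adjusted p = 0.0036, edgeR). This was 2 of 8 genes, against 10.3% of 20871 genes, 3.78% with a larger and 6.57% with a smaller response in A0. Without CHO-S stationary culture 1 both remained past the threshold, with 0.71 (adjusted p = 0.0027, edgeR) and -1.40 (adjusted p = 1.1e-06, edgeR), and 17.2% of 20868 genes passed. Junb was lost with A0 cultures 1 and 2 alone, without A0 culture 3 and without CHO-S culture 3, and Fosl2 without CHO-S culture 2, which left 1 gene each time. With A0 cultures 3 and 4 alone no AP-1 gene passed in edgeR, where 1095 genes did, although 3 of the 8 had an unadjusted p under 0.05 and DESeq2 called 1. Shares of all genes by these last 2 measures were not counted. The response of A1 differed from that of CHO-S for Maff, which rose less in A1, with a difference of -1.04 (SE 0.26, adjusted p = 0.024, edgeR), 1 of 8 genes against 7.6% of 19662, 3.77% in this direction and 3.83% in the other. Without CHO-S stationary culture 1 this was -1.13 (adjusted p = 8.8e-07, edgeR), Fosl2 also passed with -0.49 (adjusted p = 0.00025, edgeR), and 25.4% of 19655 genes did. Without both CHO-S cultures numbered 1 the count was 3, and Jun was added with -0.37 (adjusted p = 0.046, edgeR), where 4513 genes passed against 1495. The Maff call was lost without culture 2 or 3 of A1 or of CHO-S, where no AP-1 gene passed in edgeR or DESeq2, and 1 or 2 of the 8 had an unadjusted p under 0.05. In those fits 393 to 533 genes passed in edgeR, and the share of all genes by unadjusted p was not counted. The 3 comparisons of phase responses share cultures pairwise and are not independent of each other.

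The second question was how the amplified line differs from its parent. At exponential phase Jun, Fosl1 and Fosl2 were lower in A1 than in A0 and no AP-1 gene was higher, 3 of 8 genes where 25.9% of 19946 genes passed and 13.8% were lower. At stationary phase Jun, Fosl1, Atf3 and Maff were lower in A1 and Fosl2 was higher, 5 of 8 genes where 33.7% of 19293 genes passed, 17.7% lower and 16% higher. The same A0 and A1 cultures enter the phase responses above, so these values are not independent of them. The cultures of the lines did not overlap for 3 of 8 AP-1 genes at exponential and 5 at stationary phase, against 34.4% and 39.9% of all genes. The median log2 fold change of the 8 genes was 0.012 and -0.32 at these phases, and that of all genes -0.039 and -0.0021.

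**Figure D3:**
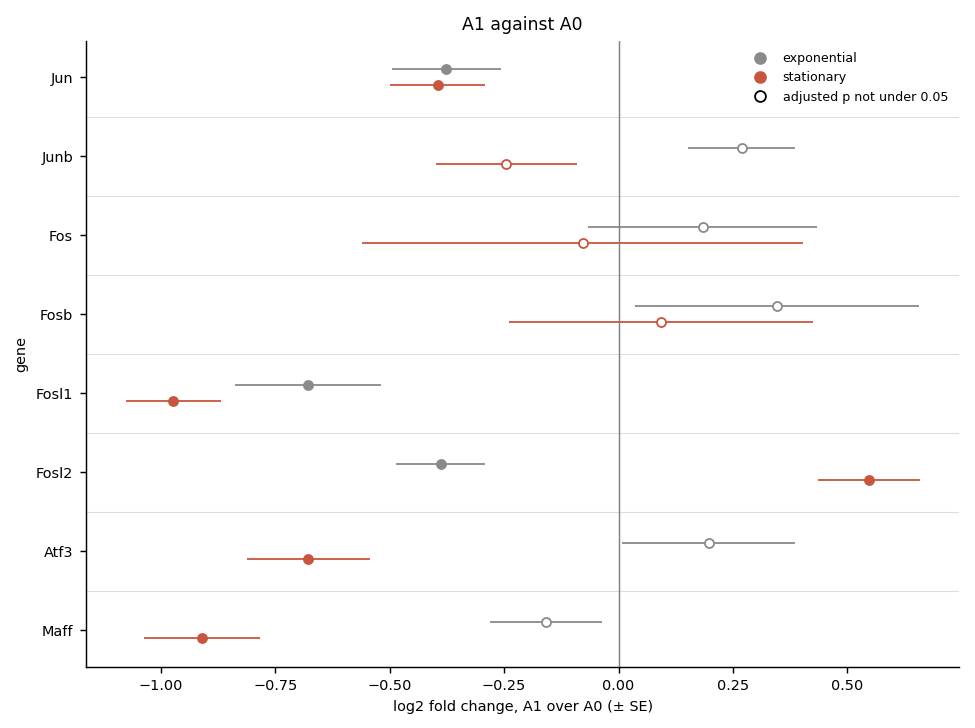
Log2 fold change of the 8 AP-1 genes between A1 and A0, with its standard error as the bar, at exponential and at stationary phase. Filled points passed an adjusted p of 0.05 and open points did not. Fosl1 and Jun are left of 0 at both phases, and Fosl2 lies left of 0 at exponential and right of it at stationary phase.

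Fosl1 was lower in A1 than in A0 at both phases. Its means were 257 ± 23.3 CPM (SD, n = 3) in A1 and 410.2 ± 103 CPM (SD, n = 4) in A0 while growing exponentially, and the log2 fold change was -0.68 (SE 0.16, adjusted p = 0.0056, edgeR). At stationary phase they were 259 ± 17.1 CPM and 504 ± 75.1 CPM, a log2 fold change of -0.97 (SE 0.10, adjusted p = 8.4e-06, edgeR). The lowest A0 exponential culture, culture 4 with 279 CPM, lay just under the highest A1 culture at 284 CPM, so the lines overlapped there, and they were apart at stationary phase. When A0 cultures 1 and 2 stood for A0 the exponential difference was -0.94 (adjusted p = 1.3e-05, edgeR), and when cultures 3 and 4 did it was -0.36 (adjusted p = 0.060, edgeR).

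Jun was lower in A1 by a smaller amount. At exponential phase it had 65.2 ± 3.77 CPM (SD, n = 3) in A1 and 84.6 ± 14.7 CPM (SD, n = 4) in A0, -0.38 (SE 0.12, adjusted p = 0.030, edgeR) on the log2 scale, and at stationary phase 102 ± 15.4 CPM and 134 ± 12.1 CPM, -0.40 (SE 0.10, adjusted p = 0.0086, edgeR). The 2 lines did not overlap at either phase, with A1 the lower. The exponential call was lost without any 1 of the A1 cultures and without A0 culture 2 or 3, where the value lay between -0.42 and -0.26, in a fit over all 6 groups, and against A0 cultures 3 and 4 alone. The stationary call was lost without A1 culture 1 (-0.36) or A1 culture 2 (-0.30).

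Fosl2 changed sides between the phases. In exponential culture it averaged 28.04 ± 2.15 CPM (SD, n = 3) in A1 and 36.7 ± 0.699 CPM (SD, n = 4) in its parent, and the log2 fold change was -0.39 (SE 0.097, adjusted p = 0.0077, edgeR). In stationary culture it averaged 66.9 ± 4.71 CPM and 45.5 ± 7.13 CPM, a log2 fold change of 0.55 (SE 0.11, adjusted p = 0.0016, edgeR). The lines did not overlap at either phase. Without A1 exponential culture 3 no AP-1 gene passed at exponential phase in edgeR, with adjusted p-values of 0.10 for Jun, 0.054 for Fosl1 and 0.052 for Fosl2, while 4 of the 8 had an unadjusted p under 0.05 and DESeq2 called 1. In that fit 3160 genes passed in edgeR. Shares of all genes by unadjusted p or DESeq2 were not counted there, so the last 2 counts have no background.

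Atf3 and Maff did not pass the test between A1 and A0 at exponential phase and were lower in A1 at stationary phase. For Atf3 the exponential means were 5.81 ± 1.49 CPM in A1 and 5.05 ± 0.668 CPM in A0, with overlapping cultures and a difference of 0.20 (adjusted p = 0.48, edgeR), and the stationary means were 24.9 ± 3.00 CPM and 39.3 ± 6.90 CPM, a difference of -0.68 (SE 0.13, adjusted p = 0.0012, edgeR). For Maff the exponential means were 16.5 ± 2.66 CPM and 18.4 ± 0.661 CPM, a difference of -0.16 (adjusted p = 0.38, edgeR). Its stationary means were 21.8 ± 4.25 CPM and 40.3 ± 2.84 CPM, a difference of -0.91 (SE 0.13, adjusted p = 7.7e-05, edgeR), and every A1 culture was below every A0 culture. Junb, Fos and Fosb had differences of 0.27, 0.18 and 0.35 at exponential phase and -0.24, -0.079 and 0.092 at stationary phase, none of which passed. With A0 cultures 1 and 2 alone the stationary difference of Fos passed, with 1.28 (adjusted p = 0.016, edgeR), while the other pair, cultures 3 and 4, gave -0.74 (adjusted p = 0.074, edgeR).

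Both producing lines were then set against CHO-S. Jun and Atf3 were higher and Junb and Fosb lower in A0 and in A1 at both phases. The 2 lines share the CHO-S cultures as control, so their values are given side by side and were not counted as separate evidence. In A0, 7 of 8 genes passed at exponential phase and 7 at stationary phase, where 49.5% of 19966 and 40% of 19007 genes passed. In A1, 7 passed at exponential and 4 at stationary phase, where 57.2% of 18488 and 34.8% of 18243 genes passed. At exponential phase 4 AP-1 genes were higher and 3 lower in A0, against 27.6% and 21.9% of all genes, and 3 higher and 4 lower in A1, against 30% and 27.1%. At stationary phase 4 were higher and 3 lower in A0, against 20.7% and 19.3%, and 2 higher and 2 lower in A1, against 18.2% and 16.6%. The lines did not overlap for 7 and 5 genes in A0 and 7 and 4 in A1, where 53.8%, 45.1%, 61.9% and 48.8% of all genes did not overlap. Without CHO-S stationary culture 1, the stationary counts were 7 for A0 and 7 for A1, with 51.8% and 57.4% of all genes. The median log2 fold change of the 8 genes was 0.28 and -0.14 in A0 and -0.27 and -0.34 in A1, and that of all genes was 0.14 and 0.080 in A0 and 0.055 and 0.062 in A1. At exponential phase in A0, each of the 7 genes called lay further from 0 than this median of all genes.

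**Figure D4:**
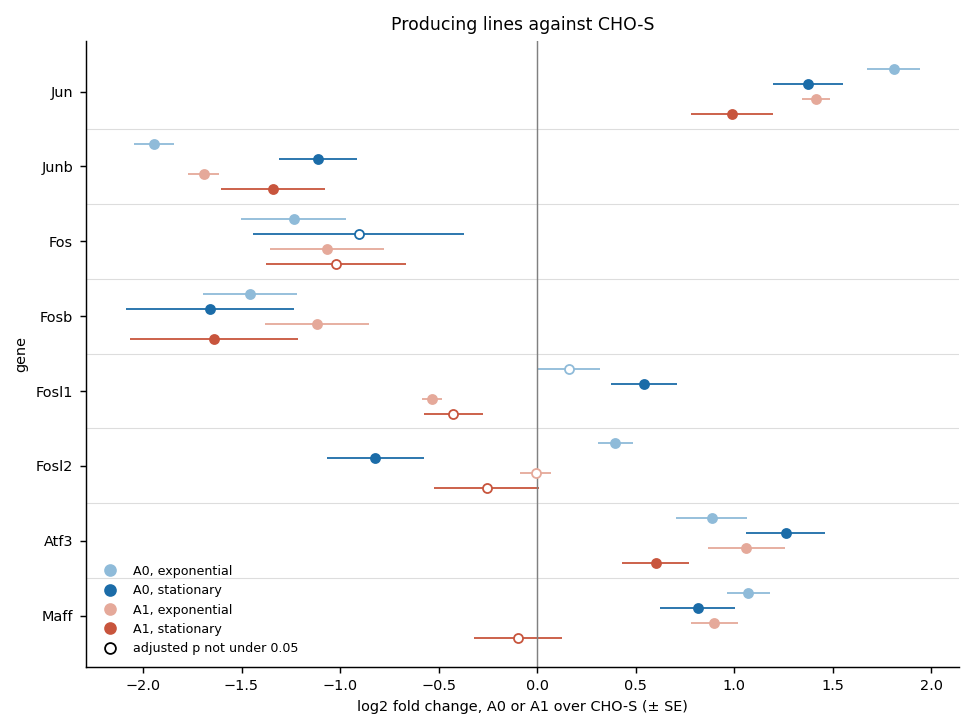
Log2 fold change of the 8 AP-1 genes between A0 or A1 and CHO-S, with its standard error as the bar, at exponential and stationary phase. Filled points passed an adjusted p of 0.05 and open points did not. Jun and Atf3 lie right of 0 in all 4 comparisons and Junb, Fos and Fosb left of 0.

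The JUN genes went in opposite directions. Jun averaged 24.3 ± 1.96 CPM (SD, n = 3) in CHO-S at exponential phase, against 84.6 ± 14.7 in A0 and 65.2 ± 3.77 in A1, and the log2 fold changes were 1.81 (SE 0.13, adjusted p = 4.9e-08, edgeR) for A0 and 1.41 (SE 0.072, adjusted p = 4.0e-14, edgeR) for A1. At stationary phase CHO-S had 52.2 ± 11.4 CPM and the values were 1.38 (adjusted p = 0.00018, edgeR) and 0.99 (adjusted p = 0.0074, edgeR). Junb averaged 55.5 ± 4.61 CPM in CHO-S at exponential phase, against 14.3 ± 1.13 in A0 and 17.3 ± 1.04 in A1, with log2 fold changes of -1.95 (SE 0.10, adjusted p = 1.3e-09, edgeR) and -1.69 (SE 0.079, adjusted p = 1.0e-14, edgeR). At stationary phase the Junb values were -1.11 (adjusted p = 0.0013, edgeR) and -1.34 (adjusted p = 0.0054, edgeR). All exponential cultures of CHO-S lay below all others for Jun and above all cultures of A0 and A1 for Junb.

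Of the FOS genes, Fos and Fosb were lower in the producing lines at exponential phase. Their log2 fold changes were -1.24 (SE 0.27, adjusted p = 0.0014, edgeR) and -1.46 (SE 0.24, adjusted p = 0.00013, edgeR) in A0, and -1.06 (SE 0.29, adjusted p = 0.0030, edgeR) and -1.12 (SE 0.26, adjusted p = 0.00083, edgeR) in A1. The call of Fos in A1 was lost without CHO-S exponential culture 1, at -0.80 (adjusted p = 0.051, edgeR), and in a fit over all 6 groups (adjusted p = 0.052, edgeR). Fosb was also lower at stationary phase, with -1.66 (adjusted p = 0.011, edgeR) in A0 and -1.64 (adjusted p = 0.018, edgeR) in A1. The A1 call had an adjusted p of 0.11 in DESeq2 and was lost without A1 stationary culture 2 or 3. Both calls were lost without CHO-S stationary culture 2, at -1.02 (adjusted p = 0.21, edgeR) and -1.05 (adjusted p = 0.21, edgeR). With the culture number as a block both were lost too, at -1.27 (adjusted p = 0.10, edgeR) and -1.50 (adjusted p = 0.058, edgeR). The A0 call was also lost with A0 cultures 1 and 2 alone, at -1.42 (adjusted p = 0.073, edgeR). Fos had -0.91 (adjusted p = 0.21, edgeR) in A0 and -1.02 (adjusted p = 0.055, edgeR) in A1 at stationary phase, and the A1 value passed with -1.13 (adjusted p = 0.00039, edgeR) once CHO-S stationary culture 1 was left out. The A0 value of Fos was -2.29 (adjusted p = 0.010, edgeR) with A0 cultures 1 and 2 alone and -0.32 (adjusted p = 0.53, edgeR) with cultures 3 and 4 alone. Fosl1 had log2 fold changes of 0.16 (adjusted p = 0.41, edgeR) for A0 and -0.53 (adjusted p = 2.8e-09, edgeR) for A1 at exponential phase, and 0.54 (adjusted p = 0.026, edgeR) and -0.43 (adjusted p = 0.057, edgeR) at stationary phase. A0 lay above CHO-S at stationary phase and A1 below it at exponential phase. The A0 stationary call was lost without A0 culture 1 or 2 (0.46 and 0.49), with A0 cultures 3 and 4 alone (0.33) and without CHO-S stationary culture 2 (0.60). The last fit left 4 of the 8 AP-1 genes called, where 5475 genes passed in all. Without CHO-S stationary culture 1 the A1 stationary value of Fosl1 passed with -0.51 (adjusted p = 1.3e-10, edgeR). The A0 exponential value was 0.41 (adjusted p = 3.8e-05, edgeR) when A0 was read from cultures 1 and 2, and from cultures 3 and 4 it was -0.17 (adjusted p = 0.26, edgeR).

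Fosl2 was higher in A0 than in CHO-S at exponential phase, with a log2 fold change of 0.40 (SE 0.087, adjusted p = 0.0015, edgeR), and lower at stationary phase, with -0.82 (SE 0.24, adjusted p = 0.022, edgeR). The A1 values were -0.0071 and -0.26 (adjusted p = 0.49, edgeR), and without CHO-S stationary culture 1 the latter passed with -0.51 (adjusted p = 1.0e-08, edgeR). The A0 stationary call was lost without A0 culture 1 or 2, without CHO-S stationary culture 2 or 3, and with each pair of A0 cultures alone, where the value lay between -0.99 and -0.56. Atf3 was higher than in CHO-S on the log2 scale by 0.88 (SE 0.18, adjusted p = 0.00087, edgeR) in A0 and 1.06 (SE 0.20, adjusted p = 6.0e-05, edgeR) in A1 at exponential phase. At stationary phase its differences were 1.26 (adjusted p = 0.00067, edgeR) and 0.60 (adjusted p = 0.025, edgeR), and the A1 call was lost when any 1 of its cultures but CHO-S stationary culture 1 was left out (0.42 to 0.65). Maff was higher at exponential phase by 1.07 (SE 0.11, adjusted p = 1.5e-06, edgeR) and 0.90 (SE 0.12, adjusted p = 7.3e-07, edgeR), and at stationary phase by 0.81 (adjusted p = 0.0062, edgeR) in A0, a call lost with A0 cultures 3 and 4 alone, at 0.72 (adjusted p = 0.074, edgeR), whereas A1 had -0.098 (adjusted p = 0.78, edgeR).

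The order of the 6 groups differed between genes. For Jun it ran, by mean level, from CHO-S exponential through CHO-S stationary, A1 exponential, A0 exponential and A1 stationary to A0 stationary, and neighbours overlapped between CHO-S stationary and A1 exponential and between A0 exponential and A1 stationary. For Atf3 CHO-S exponential was lowest, then A0 and A1 exponential, which overlapped, followed by CHO-S, A1 and A0 stationary, each apart from the next. For Maff A0 stationary stood above all other groups, and A1 exponential, A0 exponential, CHO-S stationary and A1 stationary overlapped in turn. Junb was lowest in A0 exponential, then in A1 exponential, A1 stationary and A0 stationary, which overlapped in turn, and highest in the 2 CHO-S groups, which overlapped. Fosl1 was lowest in the 2 A1 groups, which overlapped, and CHO-S stationary, CHO-S exponential, A0 exponential and A0 stationary followed, each overlapping with the next. Fos had no neighbours apart, and Fosb was apart only between A1 stationary and CHO-S exponential. Fosl2 was lowest in A1 and CHO-S exponential, which overlapped, then A0 exponential, A0 stationary, and A1 and CHO-S stationary, which overlapped through CHO-S stationary culture 1.

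How the genes varied together was described over the 20 cultures, for the 6 genes with a mean of at least 5 CPM. On log2(CPM + 1), Pearson's r was 0.854 between Atf3 and Maff, 0.837 between Jun and Maff and 0.724 between Jun and Atf3, and -0.654 between Jun and Junb. After each line was centred on its own mean, which leaves mainly the phase, r was 0.897 between Atf3 and Maff, 0.892 between Jun and Atf3 and 0.811 between Jun and Maff. The r of Jun with Junb was then 0.29, and Fosl1 had r of 0.504 with Junb and at most 0.318 with the other genes. The cultures share line and phase, so these are descriptions and carry no test.

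The genes whose levels were most like those of the AP-1 genes were taken by the same measure from 10587 other genes with a mean of at least 5 CPM. Atf3 was closest to Ddit3 (r = 0.978), which encodes the stress factor CHOP, a partner of ATF factors, followed by Herpud1 (0.97), a gene of endoplasmic reticulum-associated degradation. The next was LOC103160520 (0.965). With each line centred, Atf3 was again closest to Ddit3 (0.989), followed by Trim25 (0.986) and Prune2 (0.979). Jun was closest to Susd1 (0.976), Dennd1a (0.973) and Dusp16 (0.972), a phosphatase of the JNK kinases. Junb was closest to Clcf1 (0.969), a cytokine of the interleukin-6 family, Maff to Pfkp (0.951) and Pdk1 (0.948), both enzymes of glucose use, and Fosl1 to Wipi2 (0.927), an autophagy protein. Fosl2 had no gene above 0.849, and with lines centred it was closest to Tgm2 (0.95), a transglutaminase, Apba1 (0.94) and Loxl2 (0.933), a lysyl oxidase of the matrix. Without CHO-S stationary culture 1 the first gene of each member had an r between 0.857 and 0.98 on the levels.

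**Figure D5:**
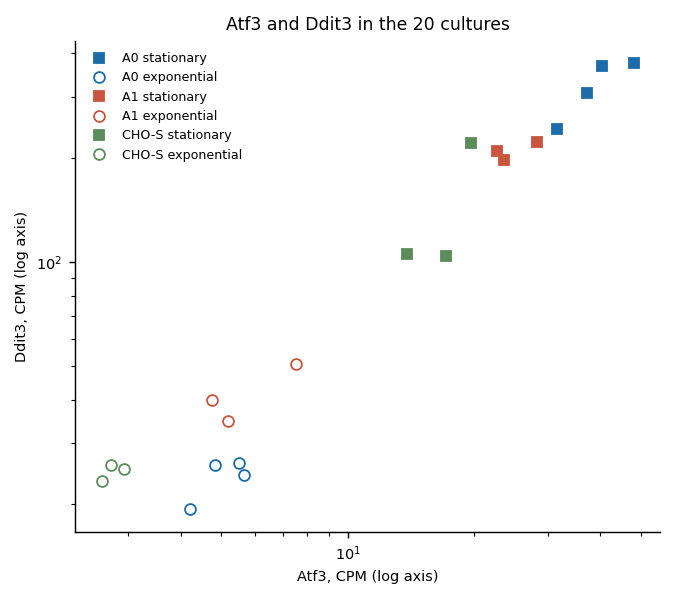
Level of Ddit3 against that of Atf3 in the 20 cultures, in CPM on log axes, with open circles for exponential and filled squares for stationary cultures. The stationary cultures of all 3 lines lie above and to the right of the exponential ones, from 2.75 ± 0.170 CPM of Atf3 in CHO-S at exponential phase to 39.3 ± 6.90 CPM in A0 at stationary phase (mean and SD).

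Genes that work with AP-1 were followed in 6 lists, and their changes are log2 fold changes from the same fits. The first holds other leucine zipper (bZIP) factors, such as the ATF, CEBP and MAF genes. At stationary phase 13 higher and 1 lower of 27 tested passed in A0, 15 higher and 2 lower of 27 tested in A1 and 3 higher and 1 lower of 25 tested in CHO-S, the latter 14 higher and 5 lower of 25 without CHO-S stationary culture 1. Of all genes, 17.7% were higher and 20.1% lower in A0, 15.6% and 17.8% in A1, and 6.81% and 6.48% in CHO-S. Without CHO-S stationary culture 1, 47.7% of all genes passed in CHO-S in either direction, 3995 of 17319 higher and 4274 lower. The same shares stand beside the phase counts of the lists below. The median log2 fold change of the bZIP list was 0.38, 0.36 and 0.26. Ddit3 led in A0 with 323 ± 62.3 CPM against 23.99 ± 3.20, a log2 fold change of 3.74 (SE 0.15, adjusted p = 1.3e-10, edgeR). It was also called in A1, with 209 ± 12.9 CPM against 41.9 ± 8.31, a log2 fold change of 2.34 (SE 0.086, adjusted p = 7.9e-19, edgeR), and in CHO-S, with 144 ± 67 CPM against 24.9 ± 1.37, a log2 fold change of 2.49 (SE 0.32, adjusted p = 0.0046, edgeR). CHO-S stationary culture 1 had 220.9 CPM of Ddit3, against 104.1 and 105.5 CPM in cultures 2 and 3, so it raised that mean. Nfil3, a repressor that binds ATF sites, and Nfe2l1, a partner of MAFF proteins, rose in A0 by 1.94 and 1.65. Atf5 and Cebpg, both factors of the amino acid response, rose in A1 by 1.52 and 1.33, and in CHO-S the clock factor Dbp rose by 2.57 while Atf5 fell, with a log2 change of -0.94.

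The MAP kinase cascade relays growth and stress signals to AP-1. Of its genes, 2 higher and 13 lower of 32 tested passed between phases in A0 (median -0.14), 4 higher and 10 lower of 33 tested in A1 (median -0.061) and 0 higher and 0 lower of 31 tested in CHO-S (median -0.14). In CHO-S 3 of them had an unadjusted p under 0.05 in edgeR, and DESeq2 called 2, where it called 2727 genes in all. The share of all genes by unadjusted p was not counted there. Without CHO-S stationary culture 1, 4 higher and 14 lower of 31 passed in edgeR. Map2k3, a kinase upstream of p38, fell in A0 from 109 ± 20 to 56.7 ± 7.81 CPM and in A1 from 92.5 ± 2.60 to 53.02 ± 3.77 CPM, with log2 changes of -0.96 and -0.79. Hras had changes of -0.92 and -0.51 in these lines, Map3k7 (TAK1) fell in A0 (-0.65) and Map3k1, a kinase of the JNK branch, rose in A1 (0.54). All of these passed the test in edgeR.

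Of the phosphatases and other inhibitors that end MAP kinase signals, 5 higher and 5 lower of 17 tested passed in A0 (median 0.25), 6 higher and 2 lower of 15 tested in A1 (median 0.13) and 5 higher and 0 lower of 14 tested in CHO-S (median 0.45), the latter 11 higher and 2 lower of 14 without CHO-S stationary culture 1. Dusp10, which acts on JNK and p38, rose in all 3 lines, by 1.08, 0.63 and 0.84. Spry2 and Dusp4 rose in A0 by 1.27 and 1.19. Dusp1 and Dusp16 rose by 0.91 and 0.58 in A1 and by 1.01 and 1.10 in CHO-S.

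Other immediate early genes and factors of the serum response element gave 9 higher and 2 lower of 24 tested in A0 (median 0.18), 9 higher and 2 lower of 24 tested in A1 (median 0.11) and 7 higher and 3 lower of 24 tested in CHO-S (median 0.31), and 14 higher and 3 lower of 24 in CHO-S without CHO-S stationary culture 1. Btg1, an inhibitor of proliferation, rose in A0 and A1 by 0.83 and 0.57, and Ier3 and Elk3 rose in A0 by 0.74 and 0.65. Egr1 rose in A1 by 0.86. Btg2 fell in A1 by 1.32 and rose in CHO-S by 1.47. Ctgf, a matrix-associated growth factor, went from 149 ± 19.5 to 20.7 ± 7.18 CPM in CHO-S (-2.76), where Nr4a1 rose by 1.24.

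Among genes with known AP-1 sites, which include matrix proteases and growth factors, 13 higher and 5 lower of 30 tested passed in A0 (median 0.11), 11 higher and 9 lower of 30 tested in A1 (median 0.16) and 8 higher and 0 lower of 28 tested in CHO-S (median 0.53). The CHO-S count was 21 higher and 2 lower of 28 without CHO-S stationary culture 1. The proteases Mmp12 and Mmp10 rose in A0, with 338 ± 134 CPM against 57.6 ± 19.4, a log2 fold change of 2.54 (SE 0.27, adjusted p = 1.7e-06, edgeR) for Mmp12 and 2.14 for Mmp10. Ereg, a ligand of the EGF receptor, rose in A0 and A1 by 2.28 and 1.31, and its relative Areg and Vegfa, the angiogenic factor, rose in A1 by 1.30 and 1.16. In CHO-S, Spp1 (osteopontin), the cytokine Il11 and the prostaglandin enzyme Ptgs2 rose by 1.97, 1.66 and 1.09. Of the ligases and modifiers that act on JUN protein, 0 higher and 5 lower of 9 tested passed in A0, 1 higher and 5 lower of 9 tested in A1 and 0 higher and 2 lower of 8 tested in CHO-S (medians -0.27, -0.27 and -0.13), with 2 higher and 4 lower of 8 in CHO-S without CHO-S stationary culture 1. Trib1, an adaptor of the COP1 ligase, fell in A0 and A1, with changes of -0.78 and -0.46.

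Between A1 and A0, the bZIP list gave 5 higher and 4 lower of 27 tested at exponential and 5 higher and 8 lower of 26 tested at stationary phase, with medians of 0.0081 and -0.18. Of all genes, 12% were higher and 13.8% lower in A1 at exponential phase, and 16% and 17.7% at stationary phase. The same shares stand beside the other list counts between A1 and A0. The MAP kinase list gave 8 higher and 7 lower of 33 tested and 7 higher and 8 lower of 31 tested (medians -0.019 and 0.079), and Mapk8, which encodes the JUN kinase JNK1, was lower in A1 at both phases, with 28.2 ± 1.43 CPM against 49.9 ± 4.55, a log2 fold change of -0.82 (SE 0.10, adjusted p = 4.9e-05, edgeR) at exponential phase and -0.72 at stationary phase. The inhibitor list gave 1 higher and 7 lower of 15 tested and 2 higher and 8 lower of 15 tested (medians -0.11 and -0.45), and Spry2 was lower in A1 at both phases (-1.15 and -2.13). The immediate early list gave 4 higher and 4 lower of 24 tested and 6 higher and 3 lower of 24 tested (medians -0.023 and -0.056).

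Among the genes with AP-1 sites, 7 higher and 8 lower of 30 tested differed between A1 and A0 at exponential phase and 6 higher and 14 lower of 30 tested at stationary phase (medians -0.025 and -0.26). Mmp12 had the largest difference, with 1.67 ± 0.510 CPM against 57.6 ± 19.4, a log2 fold change of -5.10 (SE 0.31, adjusted p = 2.2e-08, edgeR) at exponential and 6.65 ± 1.69 CPM against 338 ± 134, a log2 fold change of -5.69 (SE 0.33, adjusted p = 3.6e-08, edgeR) at stationary phase. Mmp10 was also lower in A1, with log2 fold changes of -2.92 and -4.25, and Plau, the urokinase gene, was lower at exponential phase (-2.15). The ligase list gave 5 higher and 1 lower of 9 tested and 4 higher and 1 lower of 9 tested (medians 0.43 and 0.33), and Itch and Trib2 were higher in A1 at both phases, Itch by 0.65 and 0.83 and Trib2 by 0.69 and 1.66.

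Against CHO-S, the genes with AP-1 sites gave 7 higher and 19 lower of 30 tested at exponential and 5 higher and 16 lower of 29 tested at stationary phase in A0, and 5 higher and 21 lower of 30 tested and 1 higher and 21 lower of 30 tested in A1, with medians between -1.40 and -1.13. The stationary counts without CHO-S stationary culture 1 were 6 higher and 19 lower of 29 in A0 and 4 higher and 23 lower of 30 in A1. Of all genes, 27.6% were higher and 21.9% lower in A0 at exponential phase, and 20.7% and 19.3% at stationary phase. In A1 the shares were 30% and 27.1%, and 18.2% and 16.6%. Without CHO-S stationary culture 1, 51.8% of all genes passed in A0 and 57.4% in A1 at stationary phase. Of 18990 genes in A0, 5309 were then higher and 4522 lower, and of 18204 in A1, 5439 and 5012. The same shares stand beside the other list counts against CHO-S. Il11 averaged 26.2 ± 7.49 CPM in CHO-S at exponential phase, 1.66 ± 0.363 in A0 and 1.79 ± 0.658 in A1. The immediate early list gave 5 higher and 14 lower of 24 tested and 3 higher and 14 lower of 24 tested in A0 and 6 higher and 18 lower of 24 tested and 3 higher and 14 lower of 24 tested in A1. Ctgf had log2 fold changes of -4.82 in A0 and -4.22 in A1 at exponential phase, and Btg1 of -2.62 and -2.80. The inhibitor list gave 2 higher and 9 lower of 15 tested and 3 higher and 9 lower of 16 tested in A0 and 4 higher and 10 lower of 15 tested and 2 higher and 11 lower of 15 tested in A1, and Errfi1, an inhibitor of the EGF receptor, was lower at exponential phase (-3.03 and -4.68).

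The bZIP list gave 11 higher and 6 lower of 27 tested and 11 higher and 3 lower of 26 tested in A0 and 11 higher and 6 lower of 26 tested and 7 higher and 2 lower of 26 tested in A1 against CHO-S, the last of these 12 higher and 6 lower of 26 without CHO-S stationary culture 1. Batf, an AP-1 partner of immune cells, was higher at exponential phase in both lines, by 1.41 and 1.34. The MAP kinase list gave 12 higher and 11 lower of 32 tested and 7 higher and 7 lower of 32 tested in A0 and 10 higher and 12 lower of 31 tested and 5 higher and 6 lower of 31 tested in A1, where the stationary counts without CHO-S stationary culture 1 were 10 higher and 11 lower of 32 and 10 higher and 12 lower of 31. Map3k5 (ASK1), a stress kinase, was lower at exponential phase (-1.96 and -2.46). The ligase list gave 2 higher and 3 lower of 9 tested and 2 higher and 3 lower of 9 tested in A0 and 4 higher and 2 lower of 9 tested and 2 higher and 2 lower of 9 tested in A1, the last of these 4 higher and 2 lower of 9 without CHO-S stationary culture 1. The median log2 fold changes at exponential and stationary phase were 0.36 and 0.40 in A0 and 0.22 and 0.23 in A1 for the bZIP list, and -0.062, -0.052, 0.068 and -0.0087 for the MAP kinases in the same order. They were -0.42, -0.86, -1.05 and -1.34 for the inhibitors, -0.70, -0.81, -0.70 and -0.88 for the immediate early genes and -0.14, -0.022, 0.084 and 0.052 for the ligases. Trib2 had 0 counts in every CHO-S culture at exponential phase, and against a floor of 3 counts over those 3 cultures it was at least 149-fold higher in A0 and at least 241-fold higher in A1.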

How the data were processed

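RNA-seq counts per gene were deposited by the authors for 24 libraries as 1 table of raw, whole-number counts. Per the labels and the study's methods they come from poly(A) libraries of a stranded kit, aligned to C_griseus_v1.0 with STAR 2.5.4b and counted with HTSeq 0.7.2. The strand setting of the counting is not given in the sources used here. The 5 HTSeq summary lines entered neither library sizes nor tests, among them 11.9 to 32.8% of reads outside genes and 12.7 to 14.8% aligned more than once. Libraries of 1 culture were summed, which gave 20 cultures. Nothing states that cultures came from separate thaws, so p-values measure only the spread between these cultures. No coordinates or sequences are given, since no genome of this build was used here.

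Each comparison was fitted with edgeR 4.0.16 (R 4.3.3, limma 3.58.1): TMM, quasi-likelihood test, two-sided, Benjamini-Hochberg over all genes that had 1 or more counts in 2 or more cultures, threshold 0.05, with the 2 groups compared or, for differences of phase responses, 4 groups. CPM used TMM factors over all 20 cultures, so ratios of CPM differ slightly from fitted fold changes. The floor of 3 counts covers counting error only. Each SE was the absolute log2 fold change divided by the square root of the F statistic of its quasi-likelihood test. It thus includes the spread between cultures. A0 cultures with the same number varied together in part across phases (correlations of their deviations 0.44, 0.32, 0.27 and 0.19). Stationary cultures 3 and 4 were closer to an exponential culture of another number than to their own. For the A0 phase response the blocked value of Fosl1, which changed its call, is also given, and blocked counts elsewhere are in the closing section. Alternatives were DESeq2 1.42.0, its size factors, other filters, 1 fit over all groups, the block, single cultures left out, A0 cultures by pair and first A0 libraries alone. After the data were seen, list counts and likeness were also computed without CHO-S stationary culture 1. The scripts were tested on simulated data. Figures used Python 3.11.15 and matplotlib 3.10.9.

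The genes, lists and tests were chosen with earlier results of these data known. The 8 AP-1 genes read from the table were tested in every comparison. Of each list and comparison, up to 3 genes could be named, those with the largest changes among the called genes with a mean of at least 5 CPM, and a selection of these is printed. Likeness is Pearson's r on log2(CPM + 1), as levels and with each line centred.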

Additional observations from a re-analysis of the deposited data

Results flagged for a closer look

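The phase response differed between lines by the test of the difference itself for 6 pairs of a gene and 2 lines, given as the difference of log2 fold changes. Between A1 and A0 it was larger in A1 for Fosl2 (0.94) and smaller for Atf3 (-0.87) and Maff (-0.75). Between A0 and CHO-S it was larger in A0 for Junb (0.80) and smaller for Fosl2 (-1.25). Between A1 and CHO-S it was smaller in A1 for Maff (-1.04). Of these, Fosl2 between A1 and A0 passed in every recalculation. In the 16 groups of 4 cultures that could be checked, 0 held a culture whose distance from the others passed Dixon's critical value, and chance alone would mark about 5% of groups.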

How the results depend on the processing

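Of 1368 recalculations of 96 values, each of 1 AP-1 gene in 1 comparison, 1220 changed neither sign nor call, 88 lost a call, 22 gained one and 38 turned sign, and 45 of the 96 values were the same under every alternative run. The cause of these changes was not tested. With A0 cultures 1 and 2 alone, genes passing numbered 4588 for the phase responses of A1 against A0. In the same setting, AP-1 genes passing numbered 1 for the phase responses of A0 against CHO-S, where 1996 genes passed in all. In the same setting, the sign turned for Fos in the A0 phase response (-0.83), Fos in A1 against A0 at stationary phase (1.28), Fosb in A1 against A0 at stationary phase (-0.21), Jun in the phase responses of A1 against A0 (0.047), Fos in the phase responses of A1 against A0 (1.12) and Fos in the phase responses of A0 against CHO-S (-1.08). In 1 fit over all 6 groups, genes passing numbered 2470 for the A1 phase response, 4107 for the CHO-S phase response and 973 for the phase responses of A1 against A0. In the same setting, AP-1 genes passing numbered 1 for A1 against A0 at exponential phase, where 4324 genes passed in all. With the replicate block, genes passing numbered 350 for the CHO-S phase response, 5043 for A0 against CHO-S at stationary phase, 4726 for A1 against CHO-S at stationary phase, 3435 for the phase responses of A1 against A0 and 518 for the phase responses of A1 against CHO-S. In the same setting, AP-1 genes passing numbered 2 for the CHO-S phase response, 4 for A0 against CHO-S at stationary phase, 2 for A1 against CHO-S at stationary phase, 5 for the phase responses of A1 against A0 and 0 for the phase responses of A1 against CHO-S. In the same setting, the sign turned for Fos in A1 against A0 at stationary phase (0.51) and Fosb in A1 against A0 at stationary phase (-0.083). With A0 cultures 3 and 4 alone, genes passing numbered 4866 for A1 against A0 at exponential phase, 5367 for A0 against CHO-S at stationary phase and 1095 for the phase responses of A0 against CHO-S. In the same setting, AP-1 genes passing numbered 1 for A1 against A0 at exponential phase, 4 for A0 against CHO-S at stationary phase and 0 for the phase responses of A0 against CHO-S. In the same setting, the sign turned for Fosl1 in A0 against CHO-S at exponential phase (-0.17) and Fosb in the phase responses of A1 against A0 (0.018). Without a filter on low counts, the sign turned for Jun in the phase responses of A1 against A0 (0.013). With the first A0 exponential libraries alone, the sign turned for Jun in the phase responses of A1 against A0 (0.0073). With 1 culture left out at a time, the genes that passed ranged from 0 to 8269 for the CHO-S phase response, 3160 to 6015 for A1 against A0 at exponential phase, 5475 to 9831 for A0 against CHO-S at stationary phase, 4051 to 10451 for A1 against CHO-S at stationary phase, 570 to 2987 for the phase responses of A1 against A0, 1119 to 2949 for the phase responses of A0 against CHO-S and 393 to 4513 for the phase responses of A1 against CHO-S. The AP-1 genes that passed ranged from 0 to 5 for the CHO-S phase response, 0 to 3 for A1 against A0 at exponential phase, 4 to 7 for A0 against CHO-S at stationary phase, 2 to 7 for A1 against CHO-S at stationary phase, 1 to 3 for the phase responses of A1 against A0, 1 to 2 for the phase responses of A0 against CHO-S and 0 to 3 for the phase responses of A1 against CHO-S. Values that turned sign in such a fit, each with its range, were those of Fosl1 in the A1 phase response (-0.018 to 0.10), Junb in the CHO-S phase response (-0.25 to 0.12), Fos in the CHO-S phase response (-0.17 to 0.54), Atf3 in A1 against A0 at exponential phase (-0.031 to 0.32), Fos in A1 against A0 at stationary phase (-0.35 to 0.44), Fosb in A1 against A0 at stationary phase (-0.11 to 0.24), Fosl2 in A1 against CHO-S at exponential phase (-0.088 to 0.017), Maff in A1 against CHO-S at stationary phase (-0.24 to 0.19), Jun in the phase responses of A1 against A0 (-0.14 to 0.14), Fos in the phase responses of A1 against A0 (-0.53 to 0.26), Fosb in the phase responses of A1 against A0 (-0.45 to 0.11), Fos in the phase responses of A0 against CHO-S (-0.18 to 0.69), Fosb in the phase responses of A0 against CHO-S (-0.41 to 0.30), Maff in the phase responses of A0 against CHO-S (-0.38 to 0.014), Fos in the phase responses of A1 against CHO-S (-0.32 to 0.45) and Fosb in the phase responses of A1 against CHO-S (-0.69 to 0.019). Where edgeR called 0 AP-1 genes for the phase responses of A1 against CHO-S with the replicate block, 1 had an unadjusted p under 0.05 and DESeq2 with the block called 0. Outside A0 the numbers paired the cultures weakly or not at all across phases. The correlations of same-numbered cultures were -0.15, -0.14 and 0.19 in A1 and 0.12, 0.12 and -0.0074 in CHO-S. Between lines the block joined cultures of different lines by their number alone. Those correlations at stationary phase were -0.195, 0.051 and -0.027 for A0 and CHO-S. For A1 and CHO-S they were 0.085, 0.033 and 0.023. In the CHO-S phase response the block lost the calls of Fosl2 (1.40, adjusted p = 0.058, edgeR) and Maff (1.29, adjusted p = 0.051, edgeR). Whether calls outside A0 changed under the block because of pairing was not tested. Fos and Fosb had 1 to 59 and 0 to 78 counts per culture, and CHO-S stationary culture 1 had 1038026 counts in all. The part of depth in the results was not tested.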

Other observations

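The 4 stationary A0 cultures fell apart by number for Fos, with 0.745, 0.672, 2.34 and 3.45 CPM in cultures 1 to 4, while Fosb had 1.68, 1.60, 1.32 and 0.824 CPM. In the same cultures Fosl2 and Junb were lower in cultures 1 and 2 than in cultures 3 and 4, and Atf3 and Maff were higher in cultures 1 and 2. The sample titles mark the second exponential library of cultures 1 and 2 as RLT and that of cultures 3 and 4 as Duplicate. No test was made between these pairs.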
